A study of Mus musculus with 12 samples.

Results

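Cytosolic ribosomal protein genes were followed across 3 groups of HL-1 cultures. HL-1 is a mouse cell line that was established from atrial myocytes. The 41 genes were taken by symbol from the deposited expression table, which lists 23184 symbols. They comprise 26 genes for proteins of the large subunit and its stalk and 15 genes for proteins of the small subunit. A further 38 cytosolic ribosomal protein genes of the table served for comparison.

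The cytosolic ribosome joins a small subunit, which holds and decodes the mRNA, to a large subunit, which forms the peptide bond and carries a stalk of acidic proteins that engages the translation factors. Most of its proteins are needed in equal amounts, and most of their mRNAs start with a tract of pyrimidines, the 5′ TOP motif, through which mTORC1 signalling and the RNA-binding protein Larp1 govern their translation. Mammalian genomes also hold many processed pseudogenes of ribosomal protein genes, which are reverse-transcribed copies without introns. In heart muscle, ribosome content is known to follow cell growth.

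The groups compare loss and return of WDR62, a protein of the spindle and centrosome. CON, the control, carried the empty vectors lentiCRISPRv2 and pCDH. In KD, the knockdown, a CRISPR guide directed at Wdr62 was delivered by virus. RE, the re-expression group, was KD with wild-type WDR62 added from the virus pCDH-WDR62-WT-flag. All groups grew in 10% serum and had 4 libraries each. Since KD is not said to carry pCDH while both other groups do, a response to that vector cannot be told apart from one to WDR62. The promoters in these viruses and the clonality of the cells are not stated. Whether libraries of a group stem from separate cultures is not stated either, and the p-values therefore cover a spread between libraries that may be technical.

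Levels are TPM (transcripts per 1000000), a unit scaled by transcript length, and each library sums to 1000000, so the sequencing depth is unknown. Wdr62 stood at 5.99 ± 1.79 TPM (SD, n = 4) in CON, 1.15 ± 0.275 in KD and 1.27 ± 0.578 in RE. The log2 difference of KD from CON was -1.67 ± 0.25 (SE; limma, adjusted p = 9.21e-04), and KD and RE overlapped (0.05 ± 0.25, adjusted p = 0.895). Whether this row also counts the viral WDR62 transcript is not stated. Of 16 atrial muscle markers, 7 reached 1 TPM in CON, and Actc1, Myl7 and Sln were listed at 0 in all 12 libraries. The summed level of the 16 ran from 632 to 1065 TPM in CON, 941 to 1281 in KD and 558 to 979 in RE. Gja1 and Atp2a2, with means of 669.9 and 227 TPM in CON, led this sum, while Nppa, Myh6, Ryr2 and Pln averaged 0.00377 to 0.0735 TPM there. Nkx2-5, a cardiac transcription factor, stood at 5.31 ± 2.18 TPM in CON, 12.1 ± 2.24 in KD and 18.4 ± 6.09 in RE, higher than CON in KD (log2 difference 1.10 ± 0.27; limma, adjusted p = 0.0229) and in RE (1.63 ± 0.27; adjusted p = 0.00309). It was the only atrial marker called. Of the 6 atrial markers tested, 2 differences were negative in KD against CON and 4 in RE against CON. The summed level of 6 fibroblast markers ran from 2751 to 4260 TPM in CON, 2947 to 4247 in KD and 1558 to 2524 in RE. Col3a1 led this sum. Of 5 tested, 2 fell in KD against CON, beside 3.61% of all tested genes called lower, and 2 differences were positive. Those that fell were Dcn (-2.65 ± 0.33; limma, adjusted p = 3.04e-04) and Col1a1 (-0.75 ± 0.19; adjusted p = 0.0244). In RE against KD 2 fell and in RE against CON 4, beside 0.858% and 3.63%. The sum of 6 skeletal muscle markers ran from 15.3 to 26.4 TPM in CON, 4.03 to 4.69 in KD and 3.51 to 5.25 in RE. All 3 tested ones fell in KD and in RE against CON. The sum of 6 macrophage and leukocyte markers ran from 4.71 to 8.29, 12.6 to 18.4 and 15 to 23.6 TPM. Cd68, with means of 5.55, 7.58 and 8.88 TPM, and Lyz2, with 0.924, 7.15 and 10.4, led this sum. Ptprc, Adgre1 and Itgam averaged at most 0.0109 TPM in each group. Of 2 tested, Lyz2 rose in KD against CON (2.17 ± 0.29; limma, adjusted p = 5.05e-04), beside 6.60% of all tested genes called higher. All 5 endothelial markers stayed below 1 TPM on average in CON, with sums of 0.232 to 0.793 TPM in CON, 0.505 to 1.13 in KD and 0.349 to 0.836 in RE. The part of these markers in the differences reported here was not tested. In bulk RNA, fewer cells of a type and less RNA per cell cannot be told apart.

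Many of the 41 genes have copies elsewhere in the genome that are almost or wholly identical in their coding sequence. Against GENCODE M21 on GRCm38, 40 of the 41 had at least 1 pseudogene copy of at least 90% identity over at least 50% of the coding sequence, with a median of 7 copies and a maximum of 50 for Rps2. In 11 genes the closest copy was identical over its aligned stretch. Rpl8 had no such copy. The following 60-base stretches of coding sequence show how little separates 4 of the 5 least abundant members from copies of theirs. Rpl37, the other of the 5, is not shown. Its closest copy had 99.7% identity, and 17.8% of its 50-base words occur in no other gene. Such copies are not particular to the least abundant members. Rpl15 and Rps6, with means of 198 and 154 TPM, also had a closest copy of 100% identity and no 50-base word of their own. Capitals mark the base that differs, and positions are counted from 1 at the 5′ end of the stretch.
Rps18: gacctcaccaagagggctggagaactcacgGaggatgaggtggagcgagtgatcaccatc
Rps18-ps3: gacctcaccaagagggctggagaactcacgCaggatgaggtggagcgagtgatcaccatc
Rpl24: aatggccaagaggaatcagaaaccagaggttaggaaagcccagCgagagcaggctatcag
Gm9385: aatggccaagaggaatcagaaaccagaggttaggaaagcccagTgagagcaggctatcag
Rpl11: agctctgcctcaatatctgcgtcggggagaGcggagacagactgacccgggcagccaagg
Gm10288: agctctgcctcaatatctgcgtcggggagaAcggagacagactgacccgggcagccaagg
Rpl28: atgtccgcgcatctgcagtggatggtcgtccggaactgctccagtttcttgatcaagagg
Rpl28-ps1: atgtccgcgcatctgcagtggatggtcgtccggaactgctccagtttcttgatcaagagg

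The Rps18 stretch lies in an exon at chr17:33952484-33952543 on the minus strand, and the stretch of Rps18-ps3 at chr8:107263039-107263098, minus strand, carries G31C. For Rpl24 the stretch is chr16:55969587-55969646, plus strand, and Gm9385 at chr9:116040735-116040794, minus strand, carries C44T. For Rpl11 the stretch is chr4:136052609-136052668, minus strand, and Gm10288 at chr3:146839233-146839292, minus strand, carries G31A. Rpl28 at chr7:4793329-4793388 and Rpl28-ps1 at chr1:128038569-128038628, both on the plus strand, did not differ in this stretch. How reads that match several such places were assigned is not stated.

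The TPM of the 41 genes spanned more than 4 orders of magnitude, although most of their proteins enter the ribosome in equal amounts. Mean TPM over the 12 libraries ran from 0.267 for Rps18 to 6372 for Rpl8, with a median of 90. The 5 highest were Rpl8 with 6372 TPM, Rps9 with 3812, Rpl32 with 3807, Rps15 with 3671 and Rps14 with 3050. All are core proteins of the large or the small subunit, and Rpl4 with 2376 TPM and Rps3 with 1317 TPM were the other members above 1000 TPM.

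Of the 41 genes, 5 were implausibly low for genes that every cell uses, taken as a mean more than 10 times below the median, that is below 9 TPM. These were Rps18 with 0.267 TPM, Rpl28 with 0.903, Rpl37 with 1.84, Rpl24 with 2.24 and Rpl11 with 6.49. Just above that limit stood Rps7 with 10.1 TPM and Rplp2 with 15.2. Rps18 was listed at 0 in 3 of 4 libraries of CON and of KD and reached 0.979 TPM at most, and Rpl28 had a listed value above 0 in KD 4 alone of the KD libraries. These 5 values describe the table and are not read as levels of the mRNAs.

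Level and uniqueness of the coding sequence went together. Uniqueness was measured as the share of the 50-base words of a coding sequence that occur in no transcript of another gene. It ran from 48.3% (Rps14) to 91.9% (Rps3) in the 7 members of at least 1000 TPM, whose closest copies had 95.8 to 97.7% identity. In the 34 members below 1000 TPM it ran from 0 to 69%, with a median of 7.62%, and their closest copies had a median identity of 99.7%. The 13 members without a unique word had a median of 36.4 TPM and a range of 0.903 to 198. The 16 members with a share above 0 and below 25% had a median of 101 TPM, and the 12 with 25% or more had a median of 1846 TPM. Spearman's rho between share and mean TPM was 0.70 across the 41 genes and 0.41 across the 38 other ribosomal protein genes, as a description across genes that share libraries, and genes are not independent replicates. Exceptions stood on both sides. Rpl41, outside the 41, had no unique word and a mean of 6913 TPM, and Rplp2 had 33.8% unique words and a mean of 15.2 TPM. The part of multiply matching reads in these levels was not tested, and the values of members with a low share are uncertain.

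**Figure D1:**
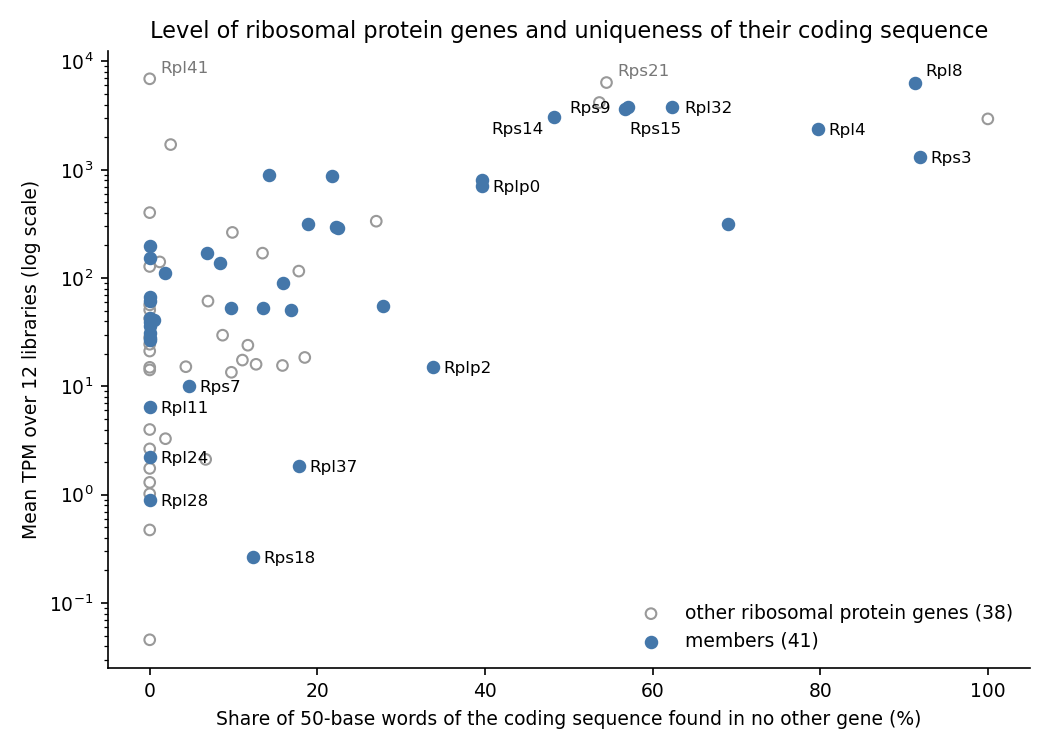
Mean TPM over 12 libraries (log scale) against the share of 50-base words of the coding sequence found in no other gene (%), 1 point per gene. Filled points are the 41 members and open points the 38 other ribosomal protein genes. The 7 members above 1000 TPM all lie at a share of 48.3% or more, and the 5 lowest at a share below 25%, as do most of the other members.

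The 5′ TOP motif was visible in the annotated start sites of only some members. A C followed by at least 4 C or T bases began exactly at a RefSeq start (GRCm38.p6, read on the transcript's strand only) in 8 of the 34 members with a listed promoter, or 23.5%. Among the tested symbols with a promoter the share was 3.1%, 278 of 8956. Allowing the tract to begin within 15 bases of the start gave 26 of 34 members (76.5%) against 47.1% of tested symbols. The following 30-base windows around the start, with the start at base 16, show 3 members with the tract at the start and Rps9, in which the nearest C that begins such a tract lay 3 bases upstream. Capitals mark the tract from that C on, and pyrimidines also precede it in all 4 windows.
Rps6: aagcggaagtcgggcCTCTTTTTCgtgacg
Rpl38: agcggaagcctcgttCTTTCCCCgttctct
Rplp2: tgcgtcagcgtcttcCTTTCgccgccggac
Rps9: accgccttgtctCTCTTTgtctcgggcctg

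These windows lie at chr4:86857353-86857382 (Rps6, minus strand), chr11:114668565-114668594 (Rpl38, plus strand), chr7:141447636-141447665 (Rplp2, plus strand) and chr7:3704026-3704055 (Rps9, plus strand). A match is a description of letters, and its absence says nothing of how an mRNA is translated. Rps6 is the small-subunit protein phosphorylated by S6 kinases downstream of mTORC1.

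Before groups were compared, 3 libraries stood apart from the others of their groups. The 41 genes summed to 26887, 27423, 29442 and 41155 TPM in CON, 22190, 22093, 26785 and 25551 TPM in KD, and 39640, 30004, 43188 and 30383 TPM in RE. CON 4, RE 1 and RE 3 were high for their groups. Every KD sum lay below every CON and RE sum, with 26785 against 26887 TPM where KD and CON came closest. In each library the 6 highest members made up 69.3% (RE 3) to 79% (CON 1) of the sum, so it mostly follows a few genes. As a share of all transcripts the sum was 3.12 ± 0.671% (SD, n = 4) in CON, 2.42 ± 0.238% in KD and 3.58 ± 0.664% in RE, or 2.79, 2.42 and 3.02% on average without those 3 libraries. CON 4 held the highest CON value in 33 of the 39 members with a mean of at least 1 TPM, and RE 3 the highest RE value in 31. In KD, the highest value lay in KD 3 for 21 members and in KD 4 for 15.

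**Figure D2:**
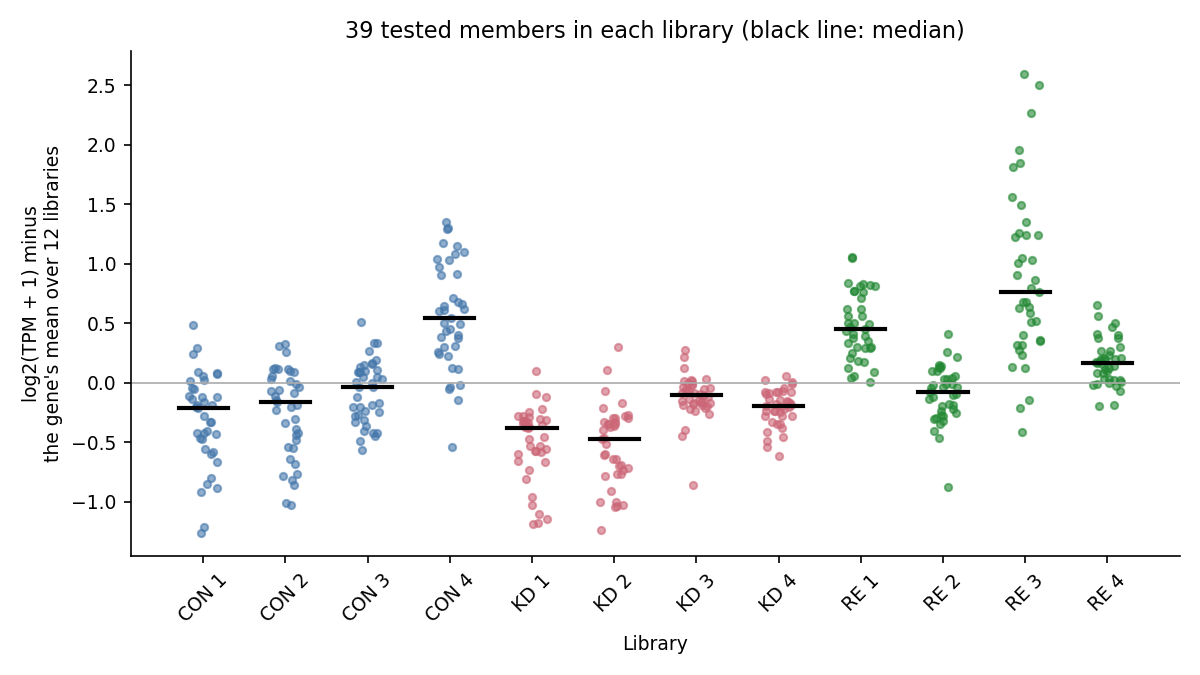
Each point is 1 of the 39 tested members in 1 library, as log2(TPM + 1) minus that gene's mean over the 12 libraries, and the black line is the median. The medians of CON 4 (0.54), RE 1 (0.45) and RE 3 (0.76) lie above those of the other libraries, which run from -0.48 to 0.16.

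The same 3 libraries were high in short transcripts and low in long ones. Against the mean of the other CON libraries, CON 4 differed by a median of 0.74 on the log2 scale over the 39 members, 0.34 over the shortest 20% of tested genes (transcripts of at most 1513 bases), -0.58 over all tested genes and -1.41 over the longest 20% (at least 4597 bases). RE 1 and RE 3 differed from RE 2 and RE 4 by member medians of 0.42 and 0.70. Over the shortest 20% these 2 libraries differed by medians of 0.14 and 0.12, and over the longest 20% by -0.58 and -0.85. In all 3 libraries the member median exceeded that of the shortest 20%. The other libraries differed in this trend too. As deviations from each gene's mean over the 12 libraries, the longest 20% had medians of 0.69, 0.66 and 0.45 in CON 1, CON 2 and CON 3. Those of KD 1 to KD 4 were 0.55, 0.52, -0.20 and 0.07, and those of RE 2 and RE 4 were -0.10 and -0.12. Leaving out CON 4, RE 1 and RE 3 therefore does not remove the trend. Of the 39 members, 34 belong to the shortest 20%, and their median transcript has 802 bases against 2739 for all tested genes. A correction for transcript length was run, and its values stand with each comparison. After it, the members' median deviation was still 0.22 in CON 4, 0.17 in RE 1 and 0.50 in RE 3. In the other libraries it ran from -0.32 (KD 2) to 0.08 (RE 4).

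**Figure D3:**
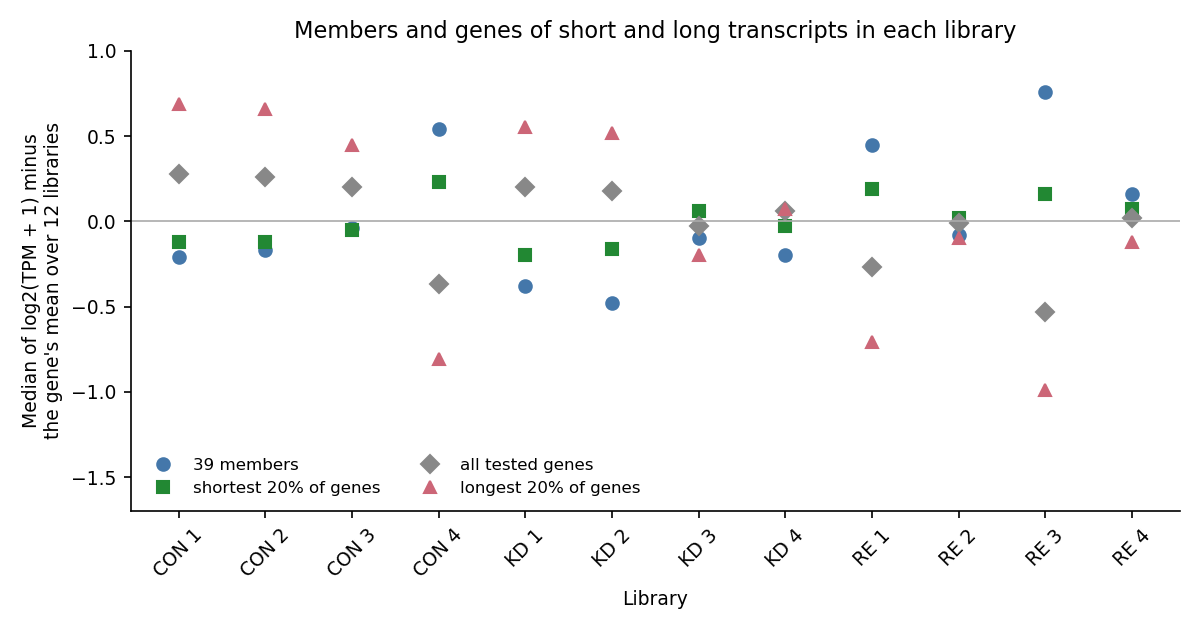
Medians of log2(TPM + 1) minus the gene's mean over 12 libraries, by library, for the 39 tested members, the shortest and longest 20% of genes by transcript length, and all tested genes. In CON 4, RE 1 and RE 3 the members and short transcripts lie above 0 and long transcripts between -0.71 and -0.99.

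The members did not swing alike. Across the 12 libraries, Rplp0, the stalk base protein often used as a reference gene, differed 1.24-fold between its lowest and highest library. Rpl4 differed 1.44-fold, Rpl7 1.5-fold, Rpl15 1.51-fold and Rpl6 1.52-fold. At the other end, Rpl13 differed 15.7-fold, Rpl19 14.6-fold and Rps16 12.6-fold, each with its highest value in RE 3. The median range was 1.42 on the log2(TPM + 1) scale. Its Spearman's rho across the 39 genes was -0.43 with the unique share and -0.23 with transcript length, as descriptions. RE 3 held the highest of the 12 values in 27 members and CON 4 in 7. KD 2 held the lowest in 18 and KD 1 in 10.

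KD against CON answers what loss of Wdr62 went with. In the large subunit Rpl8 fell, and in the small subunit Rps9 fell, and no member rose. These 2 of 39 tested members (5.13%) stand beside 3.61% of all 11774 tested genes called lower and 6.60% called higher at an adjusted p below 0.05. In sign, 38 of the 39 differences were negative, against 51.2% of all tested genes, with a member median of -0.29 against -0.01. Here and in the other comparisons the 39 include Rpl11, Rpl24 and Rpl37, whose values are not read as levels of the mRNAs. Rpl24 was the only positive one here. All 4 KD values lay below all 4 CON values in 8 members, Rpl4, Rpl6, Rpl7, Rpl8, Rpl38, Rps7, Rps9 and Rps14, against 7.02% of tested genes, and above in none, against 11.9%.

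Rpl8, a large-subunit protein near the peptidyl transferase centre, stood at 6628, 6732, 7087 and 8762 TPM in CON, 4486, 4362, 5186 and 5136 TPM in KD, and 8142, 6066, 7758 and 6115 TPM in RE. Every KD library lay below every library of both other groups. The log2 difference of KD from CON was -0.60 ± 0.15 (SE, n = 4 against 4; limma, adjusted p = 0.0202), and the exact two-sided permutation p was 0.0286, the smallest that 4 against 4 allows. The gene lies at chr15:76904078-76906314 on the plus strand. Across 21 alternatives the adjusted p ran from 2.20e-04 to 0.266 and was below 0.05 in 16.

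Rps9, a small-subunit protein that binds 18S rRNA early in assembly, stood at 3986, 4021, 3999 and 4648 TPM in CON, 2924, 2988, 3384 and 3169 TPM in KD, and 4602, 4185, 4116 and 3721 TPM in RE. Here too KD lay wholly below CON and RE. The log2 difference of KD from CON was -0.42 ± 0.11 (limma, adjusted p = 0.0346), and the exact permutation p was 0.0286. The gene lies at chr7:3703993-3706897 on the plus strand. Its adjusted p ran from 0.00154 to 0.353 across 21 alternatives and was below 0.05 in 13. Leaving out any of CON 1, CON 2, CON 3, KD 1, KD 2 or KD 4 took it above 0.05, and leaving out CON 3, KD 1 or KD 2 did so for Rpl8.

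**Figure D4:**
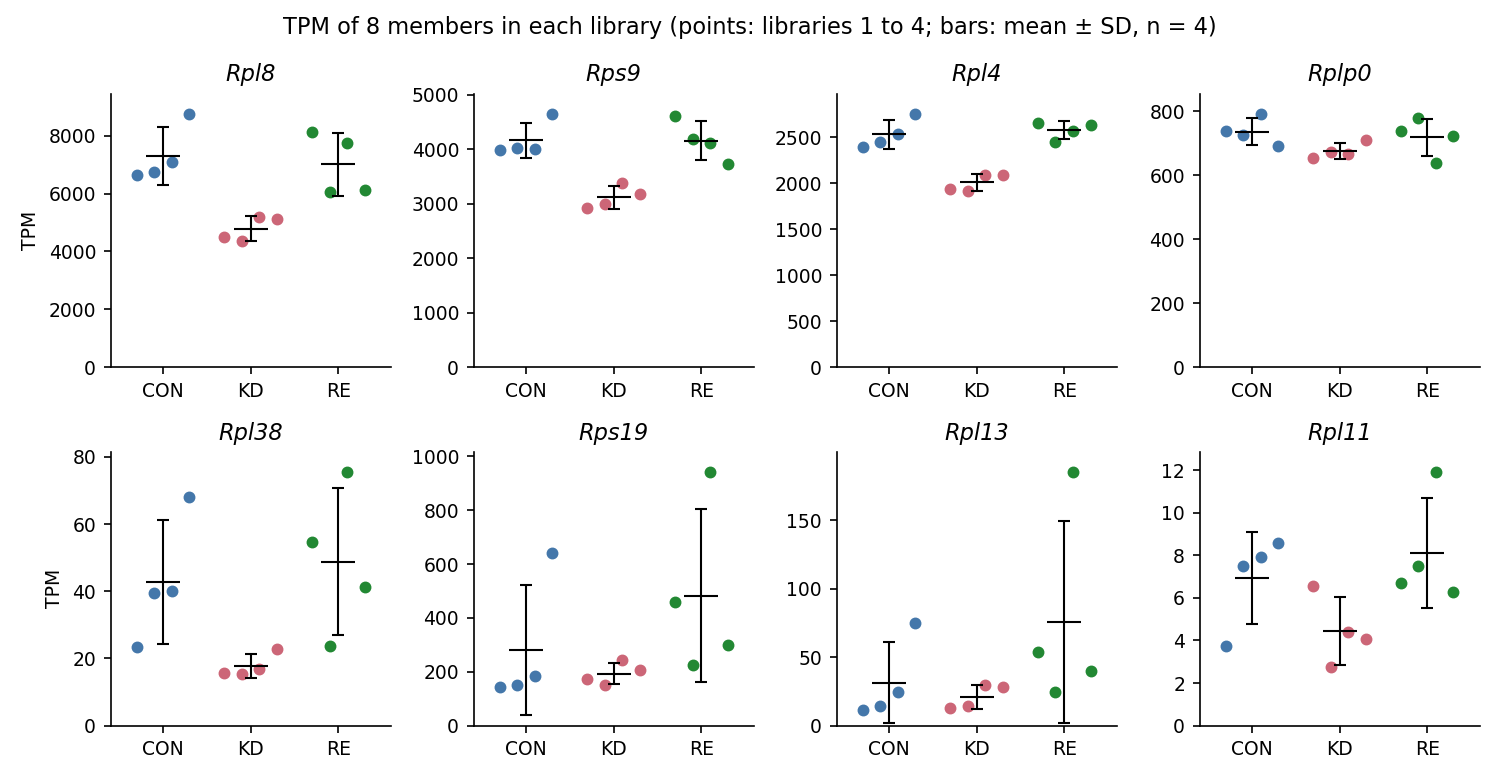
TPM of 8 members in each library (points in the order of libraries 1 to 4, bars for mean ± SD, n = 4, axes from 0). Rpl8, Rps9 and Rpl4 are lowest in all KD libraries, Rplp0 varies 1.24-fold over the 12 libraries, and Rps19 and Rpl13 peak in CON 4 and RE 3.

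Rpl38, a large-subunit protein known in mouse for its part in translating Hox mRNAs, had the most negative difference. It stood at 23.4, 39.5, 40.2 and 68 TPM in CON, 15.8, 15.3, 17 and 22.8 TPM in KD, and 54.7, 23.6, 75.4 and 41.4 TPM in RE. All KD values lay below all others. The log2 difference was -1.15 ± 0.36 (limma, adjusted p = 0.0614) and did not pass. It passed in 7 of 21 alternatives, whose adjusted p ran from 0.0052 to 0.158. Rpl38 has no unique word in its coding sequence, and its closest copy is identical over the aligned stretch, so its level is uncertain.

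Next in the negative direction came Rps13 with -0.67 ± 0.32 (limma, adjusted p = 0.226) and Rpl35 with -0.65 ± 0.37 (adjusted p = 0.326). At the other end stood Rpl24 with 0.17 ± 0.25, Rpl32 with -0.04 ± 0.20 and Rpl19 with -0.05 ± 0.58. Of these genes, Rps13, Rpl19 and Rpl24 have no unique word in their coding sequence, so their levels are uncertain. Rpl4, near the exit tunnel of the large subunit, had a tight spread, with 2395 to 2758 TPM in CON, 1918 to 2095 in KD and 2451 to 2660 in RE. Its difference of -0.33 ± 0.10 came to an adjusted p of 0.0522 (limma).

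The sign count rested in part on CON 4. Without it, 3 members fell (Rpl6, Rpl8 and Rps9), beside 11.0% of tested genes. In sign 26 of 39 differences were negative (63.0% of all genes) and the member median was -0.14, beside -0.16 for all tested genes. Without CON 4, RE 1 and RE 3 together, 7 members fell, Rpl4, Rpl6, Rpl7, Rpl8, Rpl38, Rps7 and Rps9 (17.9% of 39), beside 25.1% of all tested genes called lower and 14.2% called higher. Of these, Rpl8 differed by -0.51 ± 0.10 (limma, adjusted p = 0.00348) and Rps9 by -0.36 ± 0.09 (adjusted p = 0.012). With the length correction on all 12 libraries 6 members fell, Rpl4, Rpl8, Rpl38, Rps9, Rps13 and Rps14, and without the 3 libraries 12 fell (9.95% and 21.5% of genes called lower). In those fits the member median was -0.24 and -0.15, each against -0.01 for all tested genes, with 36 and 29 of 39 differences negative.

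RE against KD asks what the return of WDR62 went with. No member passed the test in either direction, beside 0.187% of tested genes called higher and 0.858% called lower, and 31 of the 39 had an unadjusted p below 0.05. The smallest adjusted p (limma) was 0.0695, for Rps3, which stood at 1037 to 1183 TPM in KD and 1375 to 1658 TPM in RE. Of the differences 38 of 39 were positive, against 28.0% of all tested genes, and the member median was 0.57, against -0.29. All RE values lay above all KD values in 13 members, against 3.47% of tested genes, and below in none, against 10.8%. KD entered this comparison and the one before, so their signs are not independent of each other.

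The 13 members were Rpl4, Rpl6, Rpl7, Rpl8, Rpl19, Rpl22, Rpl27, Rpl32, Rpl38, Rps2, Rps3, Rps9 and Rps20. The largest differences, none past the test, were Rpl13 with 1.46 ± 0.64 (limma, adjusted p = 0.17), Rpl19 with 1.33 ± 0.58 (adjusted p = 0.168) and Rpl14 with 1.32 ± 0.46 (adjusted p = 0.133). Rpl13 stood at 12.6, 14.1, 29.4 and 28.1 TPM in KD and at 54.1, 24.3, 185 and 39.6 TPM in RE, so RE 3 set its mean. The smallest were Rpl37 with -0.07 ± 0.33, Rplp0 with 0.09 ± 0.10 and Rpl30 with 0.17 ± 0.20. Since Rpl13 and Rpl19 have no unique word in their coding sequence, their levels are uncertain.

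Leaving out CON 4, which touches only the spread in this comparison, 23 members rose, beside 3.85% of all tested genes called higher and 19.9% called lower. Without CON 4, RE 1 and RE 3 no member passed (0.136% of genes called higher, 0.289% lower), 38 of 39 differences were still positive against 38.4% of all genes, and the member median was 0.36 against -0.10. In that set the RE libraries lay wholly above KD in 15 members, against 9.69% of genes. With the length correction on all 12 libraries 36 of 39 differences were positive, and the member median was 0.45 against -0.00 for all tested genes. Without the 3 libraries and with the correction, the member median was 0.24 against -0.01. Median-of-ratios scaling moved the median of all genes from -0.29 to 0.00 and that of the members to 0.89 (this scaling shifts the genes of a library nearly alike).

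**Figure D5:**
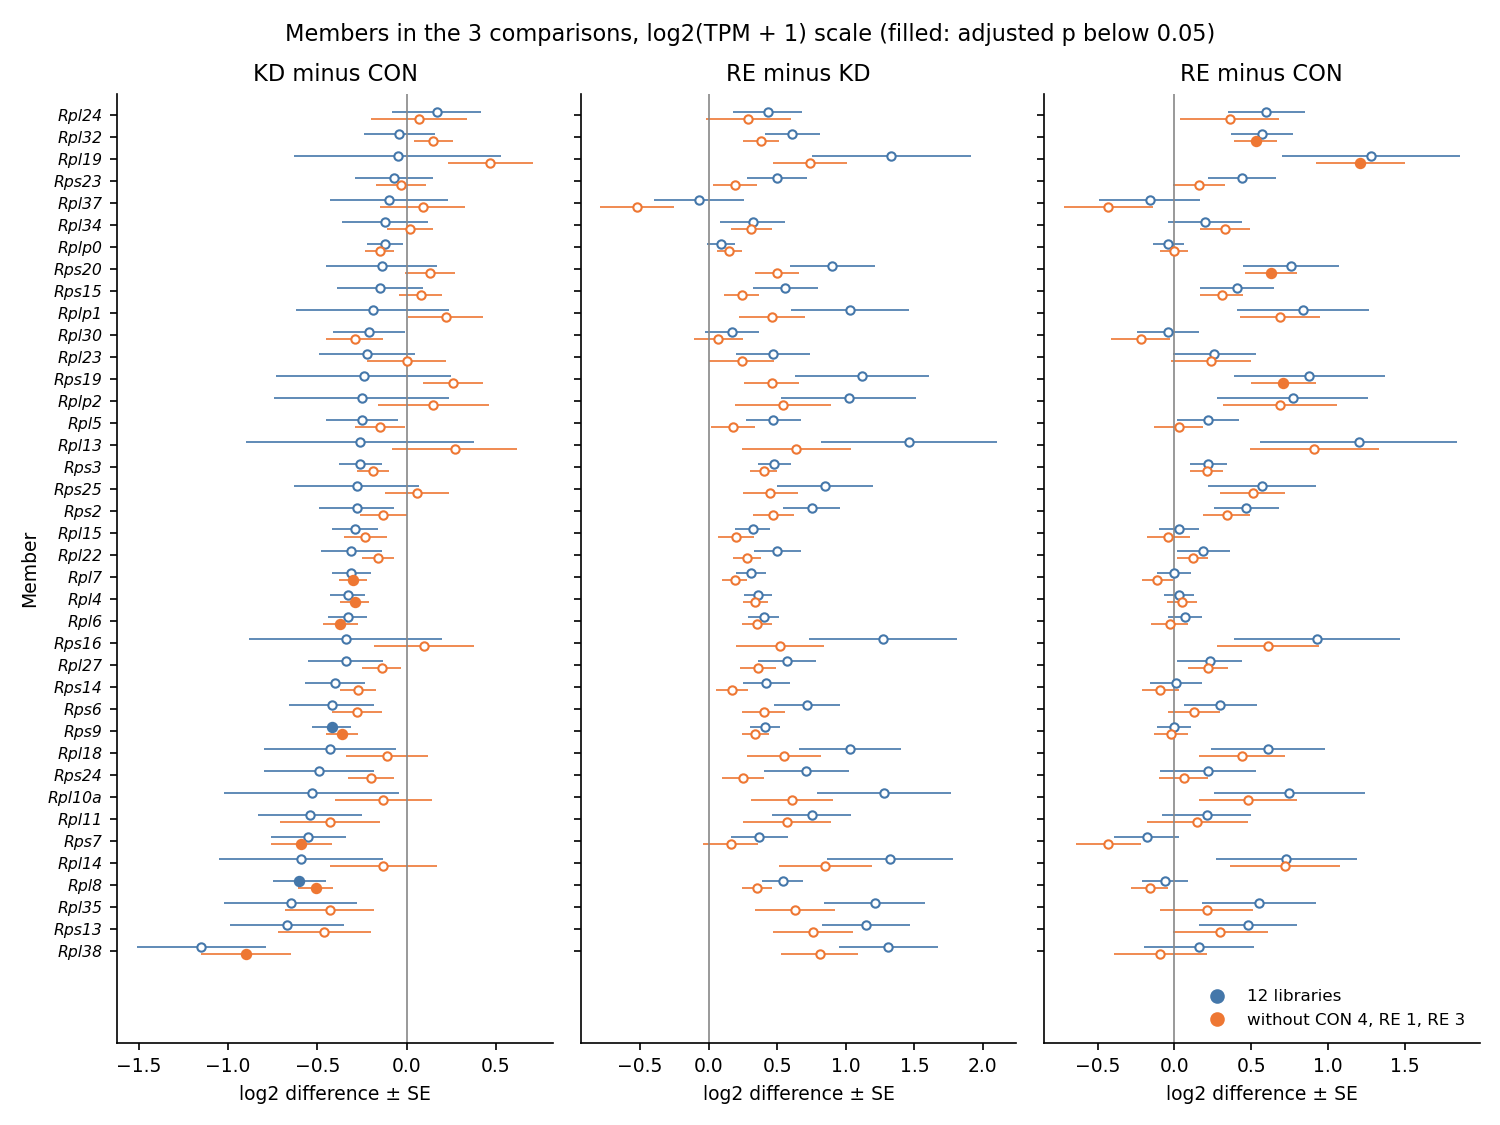
Log2 differences ± SE of the 39 tested members in the 3 comparisons, on the log2(TPM + 1) scale, with all 12 libraries (blue) and without CON 4, RE 1 and RE 3 (orange). Filled points have an adjusted p below 0.05. Rpl8 and Rps9 are filled in KD minus CON in both fits, and no point is filled in RE minus KD.

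RE against CON shows where the re-expression cells stood relative to the controls. No member passed, beside 2.70% of tested genes called higher and 3.63% called lower, and 5 members had an unadjusted p below 0.05. The differences were positive in 33 of 39, against 30.7% of all genes, with a member median of 0.26 against -0.27. In no member did the groups separate (4.46% of genes lay wholly above and 4.76% wholly below). The largest were Rpl19 with 1.28 ± 0.58, Rpl13 with 1.20 ± 0.64 and Rps16 with 0.93 ± 0.54. The smallest were Rps7 with -0.18 ± 0.21, Rpl37 with -0.16 ± 0.33 and Rpl8 with -0.06 ± 0.15, whose 95% interval ran from -0.38 to 0.26. Levels of Rpl19, Rpl13 and Rps16 are uncertain, as their coding sequences have no unique word.

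With the length correction 26 of 39 differences were positive, and the member median was 0.19 against -0.01 for all tested genes. Rpl32 rose in that fit, beside 7.73% of genes called higher. The values without correction turned on CON 4. Leaving it out, 16 members rose, beside 10.8% of genes called higher and 42.0% called lower. Leaving out RE 1 and RE 3 as well, 4 rose, Rpl19, Rpl32, Rps19 and Rps20 (8.13% of genes called higher, 24.0% lower). Rpl19 then differed by 1.21 ± 0.29 (limma, adjusted p = 0.0154; 0.0093 to 0.434 over 21 alternatives) and Rpl32 by 0.53 ± 0.14 (adjusted p = 0.0199; 0.00359 to 0.312). With the length correction added 3 rose, Rpl19, Rps19 and Rps20, and 3 fell, Rpl8, Rps7 and Rps14 (13.5% of genes called higher, 11.9% lower), and the member median was 0.02 against -0.00.

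The stalk proteins split. Rplp0 stood at 736 ± 42 TPM (SD, n = 4) in CON, 675 ± 24 in KD and 719 ± 58 in RE. Rplp1, which binds it as a dimer with Rplp2, stood at 373, 441, 534 and 1416 TPM in CON, 393, 423, 750.0 and 585 in KD, and 1217, 706, 2032 and 729 in RE. Rplp2 was listed at 5.35 to 46.9 TPM over the 12 libraries. Rplp1 and Rplp2 were high in CON 4 and RE 3, where Rplp0 had the lowest value of its group. None of the 3 passed in any comparison with all 12 libraries.

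Rpl5 and Rpl11, which together with 5S rRNA bind and inhibit Mdm2 when assembly fails, did not pass in any comparison with all 12 libraries. Rpl5 stood at 61 ± 9.64 TPM in CON, 50.9 ± 4.54 in KD and 72.7 ± 19.4 in RE. Rpl11 was listed at 6.93 ± 2.17, 4.44 ± 1.59 and 8.1 ± 2.59 TPM. Neither has a unique 50-base word in its coding sequence, so their levels are uncertain.

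Among members with named roles elsewhere, Rps6 stood at 154 ± 33.9 TPM in CON, 114 ± 16.6 in KD and 196 ± 73.4 in RE. Rps19, mutated in Diamond-Blackfan anaemia, stood at 144, 151, 185 and 640.3 TPM in CON, 174, 151, 243 and 205 in KD, and 459, 227, 941 and 301 in RE. Rps14, linked in human to the 5q- syndrome, stood at 3325 ± 717, 2475 ± 174 and 3350 ± 657 TPM. KD was below CON in all libraries for Rps14 (log2 difference -0.40 ± 0.17; limma, adjusted p = 0.176), which did not pass.

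Rpl22, which binds RNA outside the ribosome and has a paralog, Rpl22l1, stood at 321 ± 75.7 TPM in CON, 255 ± 17 in KD and 364 ± 72.3 in RE. Rpl10a, enriched on a subset of ribosomes in mouse cells, stood at 36.8 ± 25.9, 21.7 ± 3.89 and 64.3 ± 46.3 TPM. Neither passed in any comparison with all 12 libraries.

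By subunit, the 25 tested large-subunit and stalk members had a median log2 difference of -0.29 in KD against CON, 0.54 in RE against KD and 0.22 in RE against CON. The 14 tested small-subunit members had medians of -0.31, 0.72 and 0.42. Neither subunit was tested against the other.

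The 38 other cytosolic ribosomal protein genes, of which 36 were tested, had no call in any comparison with all 12 libraries. Their medians were -0.20, 0.63 and 0.51. In KD against CON 28 of the 36 were negative, and in RE against KD all 36 were positive. Of all tested genes 51.2% were negative in the first of these and 28.0% positive in the second, and without CON 4 the median of the 36 in KD against CON was -0.03. Rps12, singled out after its values were seen, had a mean of 0.0458 TPM, and Rps29 had a mean of 4 TPM, both below the limit of 9 TPM used above. Also below it were Rpl12 with 0.473 TPM, Rpl9 with 1.02, Rps28 with 1.3, Rpl21 with 1.75, Rpl7a with 2.12, Rpl36a with 2.65 and Rpl36 with 3.29. Of 9 ribosomal protein paralogs 4 were tested, and Rps27l, a p53-responsive paralog of Rps27, rose in RE against KD. Rps27l stood at 771 ± 64.9 TPM in KD and 1232 ± 184 in RE (log2 difference 0.67 ± 0.14; limma, adjusted p = 0.0479).

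Other genes of ribosome production and control gave few calls. Of 41 ribosome biogenesis genes, 2 fell in KD against CON and none rose, beside 3.61% of all tested genes called lower. All 41 differences were negative, against 51.2% of all genes, with a median of -0.62 against -0.01. These were Mrto4, a relative of Rplp0 that holds the stalk's site during assembly, with 69.9 ± 3.59 TPM in CON and 35.2 ± 7.09 in KD (-0.99 ± 0.20; limma, adjusted p = 0.00705), and Nhp2, an H/ACA particle protein, with 229.8 ± 15.8 and 105 ± 30.6 TPM (-1.16 ± 0.30; adjusted p = 0.0283). Of 20 RNA polymerase I genes 1 fell, Polr2f, a subunit shared by the nuclear RNA polymerases (-0.91 ± 0.24; limma, adjusted p = 0.0306). None of the 41 or 20 passed in RE against KD or RE against CON. Of the 41 biogenesis genes 25 were positive in RE against KD, against 28.0% of all genes, with a median of 0.10 against -0.29. In RE against CON 6 were positive, against 30.7%, with a median of -0.57 against -0.27. The 20 had medians of -0.30, 0.14 and -0.19 in the 3 comparisons.

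Of 77 mitochondrial ribosomal protein genes, 1 rose and 5 fell in KD against CON, beside 6.60% of all tested genes called higher and 3.61% called lower. Mrps6 rose (0.78 ± 0.19; limma, adjusted p = 0.0216), and Mrpl12, Mrpl13, Mrpl47, Mrps26 and Mrps9 fell, by -0.46 (Mrps9) to -0.81 (Mrpl47). Mrpl12 rose in RE against KD (0.88 ± 0.18; limma, adjusted p = 0.0464), beside 0.187% of all tested genes called higher. Mrps6 and Mrpl53 rose in RE against CON, beside 2.70%. In sign, 63 of the 77 were negative in KD against CON, 68 positive in RE against KD and 55 positive in RE against CON. Of all tested genes, 51.2% were negative in the first, and 28.0% and 30.7% positive in the others. The 77 had medians of -0.24, 0.39 and 0.17, against -0.01, -0.29 and -0.27 for all tested genes. None of 21 other mRNAs with a TOP motif, translation factors among them, passed in any comparison, with medians of -0.20, 0.26 and 0.05.

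Among 17 tested regulators of ribosomal protein mRNAs and of ribosomal stress, Eif4ebp1 fell in KD against CON, beside 3.61% of tested genes called lower. It encodes 4E-BP1, an mTORC1 substrate that blocks the cap-binding factor eIF4E. It stood at 318 ± 29.7 TPM in CON, 166 ± 25.3 in KD and 204 ± 25.3 in RE (log2 difference of KD from CON -0.95 ± 0.14; limma, adjusted p = 0.00119). It was also lower in RE than in CON (-0.64 ± 0.14; limma, adjusted p = 0.019), beside 3.63% of tested genes called lower. No other regulator passed.

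Replication-dependent histone genes, whose mRNAs mostly lack poly(A), were listed as a sign of library type. Differences between groups do not tell the library type, which was not determined. Of 11 tested, Hist1h1b and Hist1h2bc fell in KD against CON, beside 3.61% of all tested genes called lower. Hist1h1b fell in RE against CON, beside 3.63%, and none passed in RE against KD. The 11 had medians of -0.63, 0.15 and -0.61 in KD against CON, RE against KD and RE against CON. Those of all tested genes were -0.01, -0.29 and -0.27.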

How the data were processed

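The deposited values are TPM for 23184 symbols in 12 libraries. Trim Galore 0.6.6, TopHat2 2.1.1, Cufflinks 2.2.1 and mm10 are named, per the submitters' processing notes; strand, read assignment and the step to TPM are not stated there. Each deposited TPM column sums to 1000000, so depth is unknown and no counting interval is given. Groups come from the sample titles. The 4 control columns, named WT, were taken as CON by genotype and are numbered as in the table. The 11774 symbols with a mean of at least 1 TPM, 39 of the 41 genes among them (Rpl28 and Rps18 fell below), were tested on log2(TPM + 1) with limma 3.58.1 (R 4.3.3; mean-variance trend, two-sided, all 12 libraries in 1 fit), with Benjamini-Hochberg adjustment over all tested genes and a threshold of 0.05. On this scale fold changes of low genes are understated. Exact permutation tests of 4 against 4 cannot go below 0.0286. Copies were found with BLAST 2.17.0 in GENCODE M21, and start sites come from RefSeq. Lengths were those of annotated principal transcripts, found for 11708 tested genes. The members, lists and rules were chosen with earlier results of these data known. Members named in full were those called, the 3 highest and 3 lowest differences per comparison, the 5 highest and 5 lowest levels, and members with textbook roles; other members are named only in counts and for their spread. In this rule Wdr62 and up to 4 called genes per list were added. Alternatives were quantile normalization, median-of-ratios scaling, filters of 0 and 5 TPM, a pseudocount of 0.1, a fit of the compared groups alone, a correction for transcript length (loess, span 0.5), a replicate block, and leaving out each library. Leaving out CON 4, RE 1 and RE 3 together, without and with the length correction, was added after seeing the data.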

Additional observations from a re-analysis of the deposited data

Results flagged for a closer look

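In each group of 4 libraries, the value farthest from the rest was checked against Dixon's 95% critical value, which flags about 1 in 20 groups by chance. Of 123 groups (41 genes in 3 groups) 12 were flagged, and 9 of these lay in CON 4. There Rps24 stood at 1612 TPM (677 to 754 in the other CON libraries), Rps20 at 1241 TPM (558 to 603), Rps19 at 640.3 TPM (144 to 185) and Rpl14 at 638 TPM (169 to 186). Rps9 stood at 4648 TPM (3986 to 4021), Rpl35 at 198 TPM (105 to 106), Rps25 at 192 TPM (73 to 76.7), Rpl23 at 79.7 TPM (41.9 to 44.4) and Rpl27 at 59.1 TPM (32.9 to 34.9). CON 4 also had the lowest levels of long transcripts in its group, with a median of -1.41 on the log2 scale for the longest 20% of genes against the other CON libraries. The other flags were single values above listed zeros, Rpl28 at 0.935 TPM in KD 4, and Rps18 at 0.919 TPM in CON 2 and 0.979 TPM in KD 3.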

How the results depend on the processing

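Depth is unknown, so its limits cannot be given. All causes below were not tested unless the construction names them. Of 325 settings of the counts and medians, 74 moved by more than the limits set, and of 1100 settings of single members 1 reversed, 46 newly passed and 13 no longer passed. The reversed value was Rps14 in RE against CON, -0.37 (limma, adjusted p = 0.0296) without CON 4, RE 1 and RE 3 and with the length correction.

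Without a TPM filter 0 members fell in KD against CON and 1 other ribosomal protein gene changed. With a filter of 5 TPM 452 genes changed in RE against CON. Median-of-ratios scaling gave 0 members fallen in KD against CON, 78 genes changed in RE against KD, and a member median of 0.89 there, and calls in RE against KD split into 32 higher and 46 lower in place of 22 and 101. Quantile normalization gave 1904 genes changed, 4 members fallen and 4 other ribosomal protein genes changed in KD against CON, and 1178 genes changed and 1 member fallen in RE against CON. There 7.11% of all tested genes were called lower in KD against CON and 4.30% in RE against CON. The compared groups alone gave 49 genes changed in RE against KD and 409 in RE against CON. The length correction gave 2587 genes changed, 6 members fallen and 3 other ribosomal protein genes changed in KD against CON, and 1538 genes, 1 member risen and 1 other ribosomal protein gene in RE against CON. With it, 9.95% of all tested genes were called lower in KD against CON and 7.73% higher in RE against CON.

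The replicate block on KD and RE gave 2021 genes changed, 17 members risen and 10 other ribosomal protein genes changed, and 8 genes changed with the length correction added. Deviations of same-numbered KD and RE libraries correlated at -0.554, 0.652, 0.239 and -0.252, so the numbers were not taken to pair the libraries, and not every library correlated best with its own number. No block was possible with CON, whose columns carry no number of the labels.

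Without CON 4, RE 1 and RE 3, KD against CON gave 4636 genes changed, 7 members fallen and 3 other ribosomal protein genes changed, RE against KD gave 50 genes, and RE against CON gave 3781 genes, 4 members risen and 6 other ribosomal protein genes. With the length correction added the values were 5219, 12 and 7 for KD against CON, a member median of 0.24 for RE against KD, and 2974 genes, 3 members risen and 3 fallen for RE against CON.

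Leaving out each library in turn, genes changed ranged from 744 to 2412 in KD against CON, 13 to 2791 in RE against KD and 417 to 6219 in RE against CON, the highest each time without CON 4. Members fallen in KD against CON ranged from 0 to 5, members risen in RE against KD from 0 to 23 and in RE against CON from 0 to 16. The 5 came without RE 3, beside 4.96% of all tested genes called lower. The 23 and the 16 came without CON 4, beside 3.85% and 10.8% called higher. Other ribosomal protein genes changed ranged from 0 to 1, 0 to 13 and 0 to 17. Member medians ranged from -0.39 to -0.14, 0.49 to 0.68 and 0.20 to 0.47.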
